A study of Mus musculus with 14 samples.

Results

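The core autophagy machinery was taken as 37 genes, and their RNA was measured in the spleens of 7 WT and 7 Sting gt/gt mice with 1 array for each mouse (Agilent, single dye). A gene belonged to the set when a probe's accession mapped through RefSeq to 1 of the 37 symbols. Each gene was read from its brightest probe among those with signal well above background on 7 or more of 14 arrays. All 37 genes were found among the 24908 genes or unnamed transcripts tested, each was well above background on all 14 arrays, and none was saturated. WT mice were C57BL/6, and Sting gt/gt mice (Tmem173gt, golden ticket) carry a chemically induced mutation of Sting on that background. Both groups were immunized at 10 to 14 weeks of age and had received complete Freund's adjuvant and collagen type 2 (CFA + CII) 2 weeks earlier, which is the first immunization of the collagen-induced arthritis model. Splenocytes were prepared with lysis of red blood cells. WT mice were purchased and Sting gt/gt mice came from another laboratory's stock, so the mutation and the origin of the mice cannot be told apart.

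Autophagy encloses cytoplasm in a double membrane, the autophagosome, and delivers it to the lysosome. The ULK kinase complex starts the process, a lipid kinase complex around PIK3C3 marks the membrane with phosphatidylinositol 3-phosphate, and ATG9, ATG2 and the WIPI proteins extend it. A ubiquitin-like conjugation system then couples LC3 and GABARAP, the mammalian ATG8 proteins, to lipid on the membrane, where cargo receptors bind them. STING is an endoplasmic reticulum protein that responds to cyclic GMP-AMP made by cGAS, and its activation is known to drive the lipidation of LC3. The comparison asked whether Sting gt/gt splenocytes carried more or less RNA of these genes than WT splenocytes.

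Values are the log2 of the processed signal relative to the 75th percentile of the same array, so that 0 is the level of that percentile. The arrays were scanned on 2 days. Scan day 1 held replicates 1 to 3 of both genotypes and scan day 2 held replicates 4 to 7. The 4 Sting gt/gt arrays of scan day 2 lay on 1 slide and the 4 WT arrays on 2 others, so slide and genotype cannot be told apart there. Scan day 2 differed from scan day 1 at an adjusted p under 0.05 in 17 of the 37 autophagy genes (45.9%), against 38.8% of all genes tested (limma with genotype as a term). Of these, 10 were higher and 7 lower on scan day 2. The Sting1 probe averaged 3.10 ± 0.17 in WT and 3.14 ± 0.11 in Sting gt/gt (SD, n = 7 each), and since the mutation is a substitution and not a deletion, this level does not check the labels.

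Across all 14 arrays, 1 of the 37 autophagy genes differed between genotypes at an unadjusted p under 0.05. That gene was Atg4a, a protease that cleaves LC3 and GABARAP proteins, and it was lower in Sting gt/gt. The share of 2.7% stood beside 3.54% of all genes tested. After Benjamini-Hochberg adjustment over all genes, limma called 0 autophagy genes, and it called 1 gene in all (0.00401%). In 23 genes the mean was lower in Sting gt/gt and in 14 it was higher. The median difference of the set was -0.04 on the log2 scale, against 0.02 over all genes, and the differences ran from -0.37 (Atg4a) to 0.34 (Pik3c3). The set's median level itself varied between arrays of a genotype by 0.152 (SD). For no autophagy gene were the 2 genotypes free of overlap over all 14 arrays, which held for 0.0482% of all genes.

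With scan day as a term, 6 of the 37 genes passed an unadjusted p under 0.05 (16.2%), against 7.24% of all genes. Atg3, Atg7 and Pik3c3 were higher and Atg4a, Atg9a and Nbr1 were lower in Sting gt/gt, and none passed after adjustment (smallest adjusted p = 0.555 in limma). With the replicate number as a block, Pik3c3, Atg9a and Atg4a passed, which is 3 of 37 (8.11%) against 5.65% of all genes. With slide as a random block no autophagy gene passed.

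**Figure D1:**
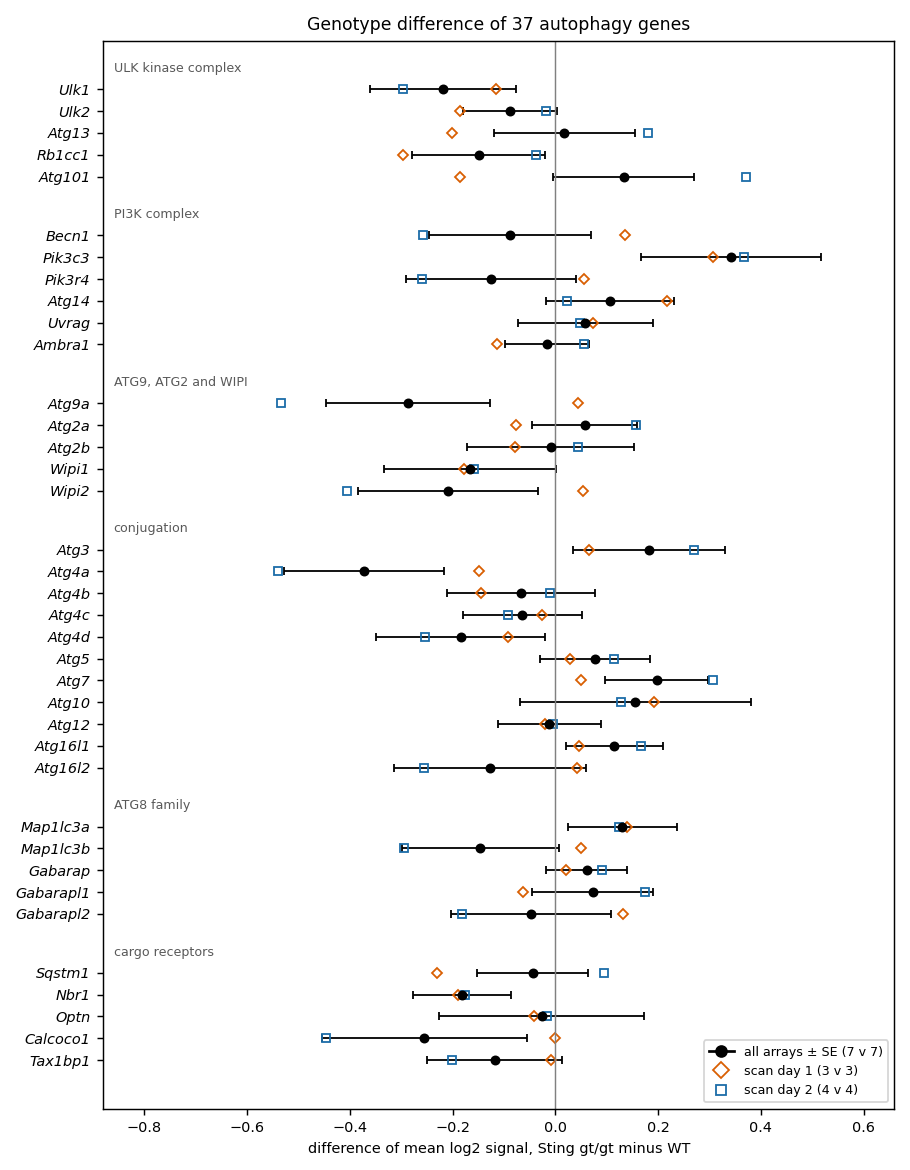
Difference in mean log2 signal (Sting gt/gt minus WT, x axis) for the 37 autophagy genes, grouped by role. Black points are all 14 arrays with the standard error from limma, open orange diamonds scan day 1 (3 against 3) and open blue squares scan day 2 (4 against 4). Atg4a lies lowest at -0.37 and Pik3c3 highest at 0.34, and the scan days lie farthest apart for Atg9a (0.04 and -0.53).

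In the ULK kinase complex none of the 5 genes passed the test over all arrays, the mean was lower for 3 and higher for 2 of them in Sting gt/gt, and the differences ran from -0.22 to 0.13. Ulk1, the kinase itself, had the smallest p of the group. Its level in WT was 3.80 at the lowest, 4.04 at the median and 4.33 at the highest array, and in Sting gt/gt 3.47, 3.84 and 4.49. The Sting gt/gt arrays thus spanned the whole WT range. The difference was -0.22 (SE 0.14, limma p = 0.142, exact permutation p = 0.142). A second and dimmer Ulk1 probe, well above background on 8 arrays, gave 0.10. Rb1cc1 (FIP200), the scaffold on which the complex assembles, had 2.01, 2.53 and 2.81 in WT and 2.14, 2.31 and 2.56 in Sting gt/gt. The groups overlapped, and the difference was -0.15 (SE 0.13, limma p = 0.265, exact permutation p = 0.246). The Rb1cc1 groups did not overlap on scan day 1 alone, with a difference of -0.30 against -0.04 on scan day 2. Rb1cc1 is read by 6 tested probes, and the other 5 gave differences from -0.30 to -0.00032. The probe at -0.30 passed on its own (SE 0.10, p = 0.00818 in limma across probes), although it correlated at only 0.294 with the probe used. Ulk2, a relative of Ulk1, stood at -0.09. Atg13, which links the kinase to the scaffold, stood at 0.02. Atg101, which stabilises ATG13, stood at 0.13, with -0.19 in the first scan and 0.37 in the second (limma, adjusted p = 0.215 for the interaction).

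The PI3K complex held 3 genes with a lower and 3 with a higher mean in Sting gt/gt, from -0.12 to 0.34. Pik3c3 (Vps34), the lipid kinase, had the largest positive difference of the 37 genes. Its level was -1.35, -0.71 and -0.47 (lowest, median, highest) in WT and -1.07, -0.37 and -0.09 in Sting gt/gt. The difference was 0.34 (SE 0.17), which is 1.27-fold, and did not pass over all arrays (limma p = 0.0685, exact permutation p = 0.0839). Pik3c3 was 0.56 higher on scan day 2 than on scan day 1, and this shift lay across both genotypes. With scan day as a term its standard error fell to 0.10 and p was 0.00293, and with the replicate block p was 0.00342. The 2 scan days gave like differences, 0.31 on day 1 and 0.37 on day 2. The WT arrays of scan day 2 read -0.47, -0.69, -0.71 and -0.70, and the Sting gt/gt arrays -0.26, -0.09, -0.37 and -0.37, with no overlap. Of its partners, Pik3r4, the regulatory subunit, stood at -0.12 and Becn1 at -0.09. Atg14 and Uvrag, which take alternative places in the complex, stood at 0.11 and 0.06, and Ambra1, which binds Becn1, at -0.02.

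Among ATG9, ATG2 and WIPI genes, 4 of 5 had a lower mean in Sting gt/gt and none passed over all arrays. Atg9a encodes the membrane protein of the vesicles that seed the autophagosome. It had 0.83, 0.95 and 1.14 in WT and 0.16, 0.52 and 1.19 in Sting gt/gt, with a difference of -0.29 (SE 0.16, limma p = 0.0931, exact permutation p = 0.0985). The Sting gt/gt arrays were split by scan day. Those of scan day 1 read 1.19, 1.09 and 1.02 against 1.08, 0.95 and 1.14 in WT. Those of scan day 2 read 0.52, 0.16, 0.43 and 0.33 against 0.86, 0.83, 1.05 and 0.85. The genotype difference was thus 0.04 in the first scan and -0.53 in the second, where all 4 Sting gt/gt arrays lay below all WT arrays. The interaction with scan day had a limma p of 0.00252 and an adjusted p of 0.0847. Wipi1, which binds phosphatidylinositol 3-phosphate, had 2.74, 3.09 and 3.58 in WT and 2.57, 2.86 and 3.60 in Sting gt/gt. The difference was -0.17 (SE 0.17, limma p = 0.338, exact permutation p = 0.353), and a second probe gave 0.03. Wipi2, which recruits the conjugation machinery, stood at -0.21. The lipid transfer proteins Atg2a and Atg2b stood at 0.06 and -0.01.

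The conjugation system was the largest group, with 11 genes, of which 6 had a lower and 5 a higher mean in Sting gt/gt and Atg4a alone passed over all arrays. Atg4a levels were 2.47, 2.87 and 3.21 in WT and 2.29, 2.42 and 3.27 in Sting gt/gt. The highest Sting gt/gt array, replicate 1, lay above every WT array, while the next highest lay at 2.55. The difference was -0.37 (SE 0.16, confidence interval at the 95% level -0.70 to -0.04), which is 0.773-fold (limma p = 0.0299, adjusted p = 0.999, exact permutation p = 0.0373). Its size was -0.15 in the first scan and -0.54 in the second (limma, adjusted p = 0.057 for the second). In the second scan the WT arrays read 2.81, 2.84, 3.21 and 2.98, and the Sting gt/gt arrays 2.55, 2.44, 2.40 and 2.29. The call was lost with slide in the fit and without some single arrays. With slide as a random block the difference was -0.21 and did not pass. When slide was a fixed term the difference turned to 0.04, but that fit rests on 5 arrays of 2 slides, all from scan day 1. Leaving out WT replicate 3 or 6, or Sting gt/gt replicate 2, 3, 6 or 7, lost the call, with differences from -0.32 to -0.35. Without Sting gt/gt replicate 1 the difference was -0.50. Atg4a, Rb1cc1 and Wipi1 stand among genes that the study lists as lower on these same arrays, so their direction here is not independent evidence.

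The other ATG4 proteases did not pass: Atg4b stood at -0.07, Atg4c at -0.06 and Atg4d at -0.18. Atg7 is the E1-like enzyme that activates both ATG12 and the ATG8 proteins. Its level was 1.04, 1.26 and 1.55 in WT and 1.31, 1.50 and 1.57 in Sting gt/gt, a difference of 0.20 (SE 0.10, limma p = 0.0685, exact permutation p = 0.0385). The genotypes were 0.05 apart on scan day 1 and 0.31 apart on scan day 2, where the groups did not overlap. A second Atg7 probe gave 0.22. Atg3, the E2-like enzyme for the ATG8 proteins, had 2.81, 3.34 and 3.41 in WT and 3.01, 3.44 and 3.72 in Sting gt/gt. The difference was 0.18 (SE 0.15, limma p = 0.235, exact permutation p = 0.225), 0.06 on scan day 1 and 0.27 on scan day 2. Atg10, the E2-like enzyme for ATG12, stood at 0.16. Atg12, Atg5 and Atg16l1, which together form the complex that places LC3 on the membrane, stood at -0.01, 0.08 and 0.11, and Atg16l2, a relative of Atg16l1, at -0.13.

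None of the 5 ATG8 family genes passed. Map1lc3a had the smallest p, with -0.73, -0.40 and -0.22 in WT and -0.47, -0.33 and -0.02 in Sting gt/gt. The groups overlapped, with a difference of 0.13 (SE 0.11, limma p = 0.236, exact permutation p = 0.184). Map1lc3b, which encodes the LC3B form used as a marker of autophagosomes, stood at -0.15, 0.05 on scan day 1 and -0.29 on scan day 2. Its Sting gt/gt replicate 1 read 6.34, and the other 6 Sting gt/gt arrays lay between 5.30 and 5.605. Gabarap, Gabarapl1 and Gabarapl2 stood at 0.06, 0.07 and -0.05.

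All 5 cargo receptors had a lower mean in Sting gt/gt, from -0.25 to -0.03, and none passed over all arrays. Nbr1, a receptor for ubiquitinated cargo, had -1.29, -1.15 and -1.03 in WT and -1.67, -1.31 and -1.12 in Sting gt/gt. The difference was -0.18 (SE 0.10, limma p = 0.0761, exact permutation p = 0.021). It was as large on scan day 1 (-0.19) as on scan day 2 (-0.18). A second Nbr1 probe gave -0.22 with an SE of 0.30, but its scan days were unlike, -0.59 on day 1 and 0.07 on day 2. That probe correlated at -0.314 with the probe used. Sqstm1 (p62), the best known of these receptors, stood at -0.04, -0.23 on scan day 1 and 0.10 on scan day 2. Calcoco1, a receptor for endoplasmic reticulum, stood at -0.25, Tax1bp1 at -0.12 and Optn at -0.03. Over the whole set 15 genes had more than 1 tested probe, and 17 of their 20 other probes had the sign of the probe used.

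**Figure D2:**
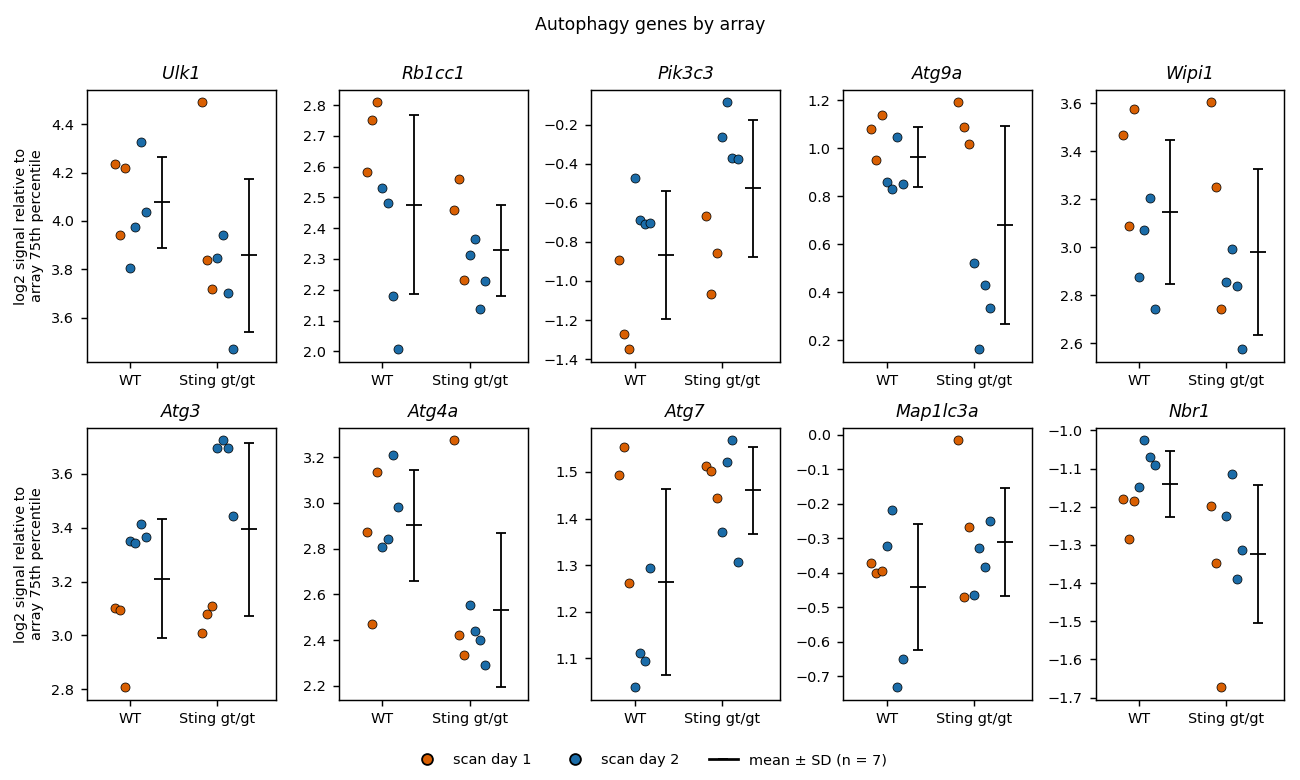
Log2 signal relative to the array's 75th percentile (y axis) of 10 autophagy genes in WT and Sting gt/gt arrays. Points are single arrays, orange for scan day 1 and blue for scan day 2, and bars give the mean and SD of 7. Atg9a in Sting gt/gt lies between 1.02 and 1.19 on scan day 1 and between 0.16 and 0.52 on scan day 2.

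Taken within scan days, the genotype comparison gave different counts. On scan day 1, limma called 0 of 37 autophagy genes at an unadjusted p under 0.05 (3.77% of all genes), where the test that the study's methods name called only Sqstm1. On scan day 2, 8 of 37 passed (21.6%), against 23.7% of all genes, so the set did not stand out from the background. Atg101, Pik3c3, Atg3 and Atg7 were higher and Atg9a, Atg4a, Map1lc3b and Calcoco1 lower in Sting gt/gt. After adjustment 0 of the 37 passed, against 1.27% of all genes, and the smallest adjusted p was 0.0518 (Atg9a, limma). Atg9a passed after adjustment under 6 other settings, in 4 of them together with Atg4a. Those settings called from 1.45% (normexp background) to 11% (array weights) of all genes after adjustment. The groups did not overlap for 9 autophagy genes on scan day 2 (24.3%; 3 higher and 6 lower in Sting gt/gt), against 15.1% of all genes. For 4 (10.8%), against 9.03%, they did not overlap on scan day 1. No autophagy gene differed in its genotype effect between scan days after adjustment, which 0.49% of all genes did, and 2 passed unadjusted (Atg9a and Atg101). Averages of cell type markers also moved with genotype on scan day 2. The average of 7 plasma cell genes lay between 2.19 and 2.69 in Sting gt/gt and between 1.73 and 2.03 in WT. That of 9 B cell genes lay between 2.05 and 2.41 in Sting gt/gt and between 2.41 and 2.95 in WT. On scan day 1 both averages went the other way. The plasma cell average lay between 1.51 and 1.67 in Sting gt/gt and between 1.75 and 1.79 in WT. The B cell average lay between 2.20 and 2.68 in Sting gt/gt and between 1.88 and 2.21 in WT. The part of these averages in the scan day 2 differences was not tested.

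The average of 12 erythroid genes also moved with genotype on scan day 2, where slide and genotype cannot be told apart. Red cell precursors, which the mouse spleen produces, clear their mitochondria by autophagy as they mature. Of these 12 genes, 10 had a lower mean in Sting gt/gt, 3 passed an unadjusted p under 0.05 (25%, against 3.54% of all genes), and the median difference was -0.42. On scan day 2, 11 of the 12 passed (91.7%, against 23.7% of all genes), 9 lower and 2 higher in Sting gt/gt, and on scan day 1 none did. Among those 3 was Tfrc, the transferrin receptor, which dividing lymphocytes also express, with a difference of -0.52. The erythroid average was 3.59 ± 0.22 in WT and 3.29 ± 0.37 in Sting gt/gt (SD, n = 7 each, exact permutation p = 0.0839). On scan day 2 it lay between 3.35 and 3.79 in WT and between 2.94 and 3.34 in Sting gt/gt. The ranges on scan day 1 were 3.33 to 3.88 and 3.04 to 4.05, with Sting gt/gt replicate 1 the highest of all arrays. In bulk RNA, fewer cells of a type and less RNA per cell cannot be told apart.

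Several autophagy genes followed the erythroid average from array to array. With a Pearson r over 0.8 on both scan days, 7 of the 37 did (18.9%): Ulk1, Wipi1, Wipi2, Atg4a, Atg4d, Map1lc3b and Nbr1. Over all genes tested outside the erythroid list the share was 2.82%. The threshold and these genes were chosen after the values were seen. For Atg4a, r was 0.98 on scan day 1 (n = 6, exact permutation p = 0.00139; Spearman's rho 1, p = 0.00278) and 0.894 on scan day 2 (n = 8, exact permutation p = 0.00218; rho 0.929, p = 0.00223). Without the 2 arrays farthest from the median erythroid average, r was 0.987 and 0.722. Over the 7 genes, r ran from 0.847 (Nbr1) to 0.981 (Ulk1) on scan day 1 and from 0.825 (Nbr1) to 0.951 (Wipi2) on scan day 2. Spearman's rho over the same genes ran from 0.771 to 1 and from 0.762 to 0.929, with exact permutation p between 0.00278 and 0.103 for n = 6 and between 0.00223 and 0.0368 for n = 8.

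Without the 2 farthest arrays, r over the 7 genes lay between 0.802 and 0.991 on scan day 1 but fell to 0.459 (Wipi1), 0.563 (Ulk1) and 0.594 (Map1lc3b) on scan day 2, so for these 3 genes the scan day 2 relation rests in part on those arrays. Wipi2 (0.858), Nbr1 (0.838), Atg4d (0.777) and Atg4a (0.722) changed less. Correlations were computed for 37 genes with 9 cell type averages on 2 scan days, 666 in all, and none passed after Benjamini-Hochberg adjustment (smallest adjusted exact permutation p = 0.162 for r and 0.253 for rho). With the mean of each genotype and scan day removed, r over 14 arrays was 0.926 for Atg4a and between 0.797 and 0.931 for the 7 genes. Other members came close to the threshold or passed it on 1 day. Atg9a had 0.79 and 0.807, Tax1bp1 0.642 and 0.687, Becn1 0.68 and 0.658, Atg12 0.969 and 0.571, and Atg4b 0.964 and 0.598. Gabarapl2 had 0.843 and 0.375, Gabarapl1 0.827 and -0.378, and Atg13 0.803 and -0.168. For Atg4b, r with the means of genotype and scan day removed was 0.93, beside 0.926 for Atg4a. Uvrag ran the other way (-0.87 and -0.66), Sqstm1 had 0.309 and -0.446, and Pik3c3 had 0.156 and -0.601. On scan day 1 alone r was strongly negative for Atg16l2 (-0.928, then 0.0535), Atg5 (-0.876, then 0.0444) and Atg4c (-0.802, then 0.313). Points in these relations share the scaling of their array, and the share of the erythroid signal in the Atg4a difference was not tested.

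**Figure D3:**
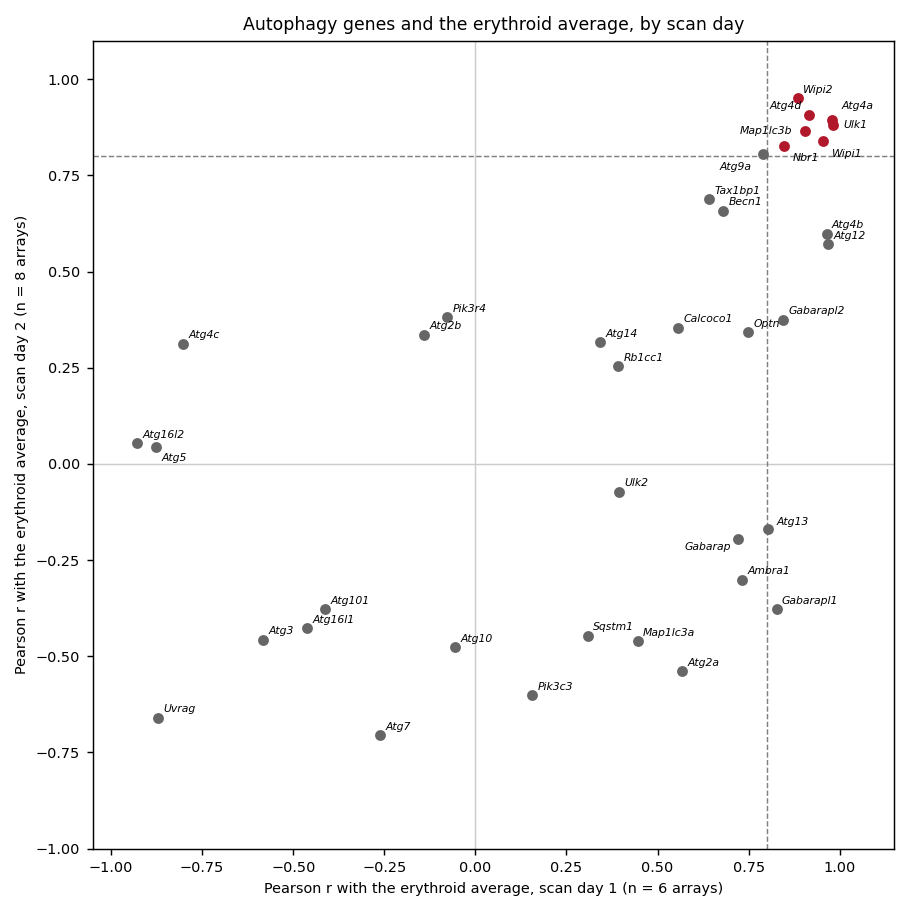
Pearson r of each of the 37 autophagy genes with the average of 12 erythroid genes, on scan day 1 (x axis, 6 arrays) and scan day 2 (y axis, 8 arrays). Dashed lines mark 0.8, and the 7 genes in red lie above it on both days, while Uvrag lies at -0.87 and -0.66.

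**Figure D4:**
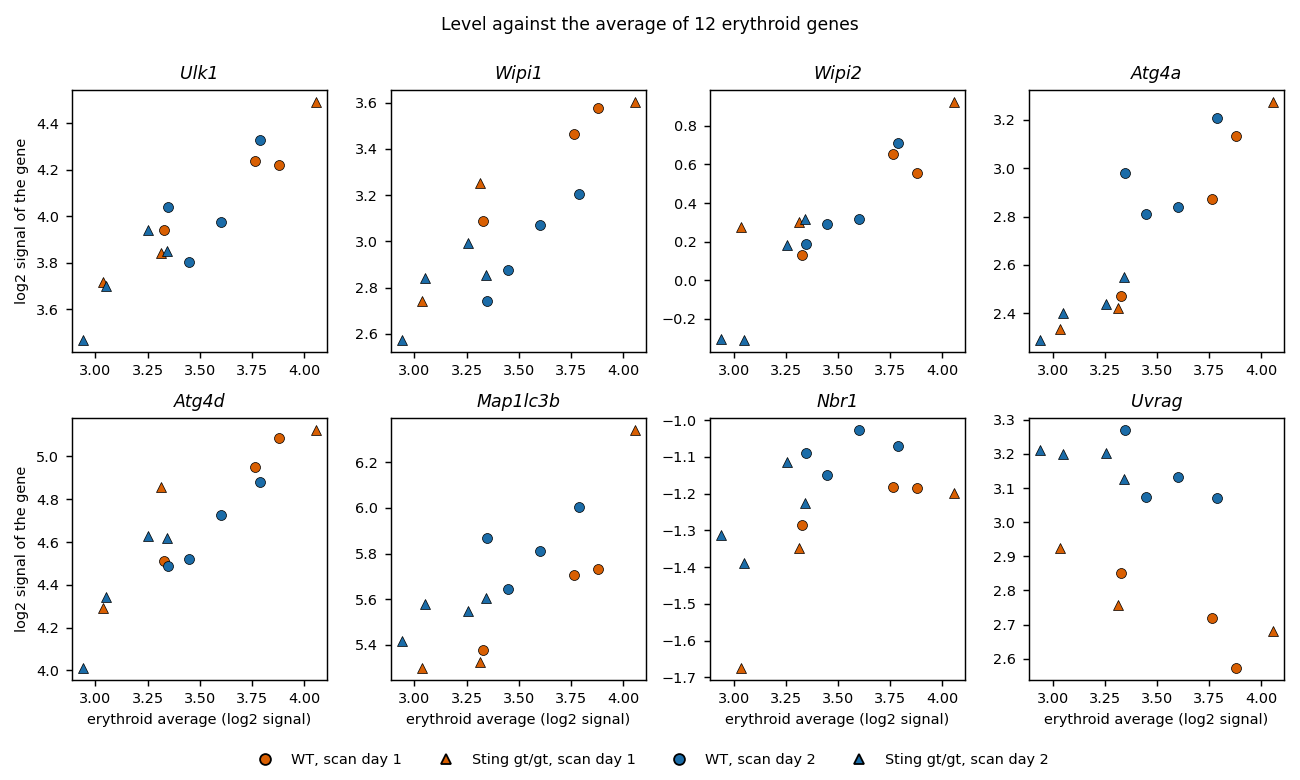
Log2 signal of 8 autophagy genes (y axis) against the erythroid average (x axis) in 14 arrays, with circles for WT, triangles for Sting gt/gt, orange for scan day 1 and blue for scan day 2. In Atg4a, Map1lc3b and Ulk1 the highest point is Sting gt/gt replicate 1, which also has the highest erythroid average (4.05).

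Promoter windows were read because these 7 genes moved together. RefSeq (GRCm38.p6) gave windows from 250 bases before to 50 after a gene start for 31 of the 37 genes. The letters AGATAA, a form of the sequence bound by GATA factors such as the erythroid factor GATA1, were searched on both strands. Other forms of that sequence were not searched. They occurred in 2 of the 31 genes (6.45%), Atg4a and Atg4d, both among the 7, and in 12.7% of all genes with a window. The letters CACGTG, an E-box bound by TFEB among other factors, occurred in 4 of 31 (12.9%; Atg14, Atg3, Atg5 and Atg7), in none of the 7, and in 8.09% of all genes. These matches are descriptions of letters in these windows. Both windows with AGATAA are shown, with only these letters in capitals. The Atg4a window, chrX:140953595-140953894 on the + strand, belongs to 1 of 2 listed starts, and the Atg4d window is chr9:21265035-21265334 on the + strand.
Atg4a: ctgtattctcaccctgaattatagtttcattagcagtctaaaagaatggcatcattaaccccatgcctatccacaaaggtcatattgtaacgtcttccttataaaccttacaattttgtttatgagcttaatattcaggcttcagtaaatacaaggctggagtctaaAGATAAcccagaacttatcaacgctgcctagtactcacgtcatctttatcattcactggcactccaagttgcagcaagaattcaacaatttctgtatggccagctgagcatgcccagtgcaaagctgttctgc
Atg4d: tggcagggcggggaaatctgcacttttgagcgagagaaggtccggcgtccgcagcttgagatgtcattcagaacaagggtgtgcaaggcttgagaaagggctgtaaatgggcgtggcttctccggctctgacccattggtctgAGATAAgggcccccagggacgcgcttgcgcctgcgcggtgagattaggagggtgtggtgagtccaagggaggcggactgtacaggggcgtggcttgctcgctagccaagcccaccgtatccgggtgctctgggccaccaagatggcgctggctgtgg

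Genes that regulate autophagy or act after it were compared in the same fit. In nutrient sensing and transcription, 31 of 32 listed genes were tested, with a median difference of -0.03. At an unadjusted p under 0.05, 0 fell and 2 rose (6.45%, against 3.54% of all genes). Both were subunits of the Ragulator complex that anchors mTORC1 at the lysosome, Lamtor1 (0.22, SE 0.09) and Lamtor4 (0.29, SE 0.12). Their differences lay mostly on scan day 2, where slide and genotype cannot be told apart. Lamtor1 had 0.003 on scan day 1 and 0.39 on scan day 2, and Lamtor4 had 0.07 and 0.45. None of 18 genes for fusion with the lysosome passed (median 0.01). Of 26 lysosome genes, 20 had a higher mean in Sting gt/gt (median 0.09). At an unadjusted p under 0.05, 1 passed (3.85%, against 3.54% of all genes), higher in Sting gt/gt. Of these lysosome genes 8 passed on scan day 2 (30.8%, against 23.7% of all genes), all higher in Sting gt/gt, and on scan day 1 none did, with 18 of 26 then lower. None of 20 mitophagy and other selective receptor genes passed, and 13 had a higher and 7 a lower mean in Sting gt/gt (median 0.04). On scan day 2, 5 of the 20 were lower, with a median of 0.11. Bnip3l (NIX), the receptor for mitochondria in red cell precursors, is in this list and was among the lower genes. It stood at -0.21 (SE 0.15), 0.11 on scan day 1 and -0.46 on scan day 2. No adjusted p over all arrays was under 0.05 in these lists.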

How the data were processed

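Array images were read by the authors in Agilent Feature Extraction 11.0.1.1, and the deposited processed intensity is background-corrected and not normalized between arrays. A table of log2 values for the whole series, likewise deposited, served as an alternative. Its normalization is not given in the sources used here, and its values correlated at 0.997 to 0.999 with the log2 intensity of the same array. Deposited flags for outlier spots, saturation and signal well above background were used as given, as "other" values.

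Processed intensities were put on the log2 scale, outlier spots were left out (11 values of tested genes), spots of a probe were averaged, and each array's 75th percentile over probes was subtracted. Probes were named through RefSeq accessions without versions, and 32994 of 56605 matched a symbol. The number of arrays limits the precision. Genotypes were compared over 24908 genes in R 4.3.3 with limma 3.58.1 (functions lmFit and eBayes) and no covariate. An unadjusted p under 0.05 counted as a call, with Benjamini-Hochberg adjustment beside it. Single values were compared by an exact permutation test, two-sided, that enumerates the 3432 assignments of 14 arrays to groups of 7, and correlations by exact two-sided permutation of pairings. The limma fit was tested on simulated data. No 2 arrays held identical values (r between arrays 0.962 to 0.993).

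Members and lists were chosen with earlier results of these data known. Full values are given for genes past the threshold with or without scan day as a term, for Atg4a, Rb1cc1 and Wipi1, and for the smallest p in each role group. Other genes named were singled out after their values were seen. Some genes behind counts of the comparison lists are not reported here by name. Cell type averages were taken over markers of erythroid cells, platelets, NK cells, dendritic cells, macrophages with monocytes, neutrophils, plasma cells, T cells and B cells, and immediate early and stress genes were compared as well. GEO gives both groups replicate numbers 1 to 7. Same-numbered arrays deviated together (r 0.155 to 0.533), and with scan-day means removed at -0.407 to 0.249, so the pairing comes largely with the scan day. Slides and scan days were read from the file headers. For normexp (offset 50) the median spot signal was used. Alternatives covered scaling, background, filters, flags, probes, test, replicate block, slide, scan day and each array left out.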

Additional observations from a re-analysis of the deposited data

Results flagged for a closer look

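In 6 of 74 groups (37 genes in both genotypes) 1 array lay far from the other 6 by Dixon's ratio of gap to range, which chance alone flags in about 1 of 20 groups. Sting gt/gt replicate 1 was the array in 4 of these groups. It was highest for Atg4a (3.27, next 2.55, ratio 0.735), for Map1lc3b (6.34, next 5.605, ratio 0.707) and for Gabarapl2 (5.46, next 4.85, ratio 0.586), and lowest for Atg16l2 (0.859, next 1.45, ratio 0.621). The same array had the highest erythroid average of all 14 (4.05). WT replicate 3 was lowest for Atg5 (1.91, next 2.05, ratio 0.659), and Sting gt/gt replicate 2 was lowest for Tax1bp1 (2.42, next 2.77, ratio 0.6001).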

How the results depend on the processing

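The number of autophagy genes past an unadjusted p under 0.05, 1 with 14 arrays and no covariate, was 2 with median centring (3.28% of all genes called), 3 with the normexp background (3.2%), 5 in the authors' series table (7.74%), 9 with array weights and an intensity trend (which called 19.4% of all genes), 3 by the t-test that the methods name (4.02%; 0 after adjustment), 3 with the replicate block (5.65%), 0 with slide as a random block (1.76%), 6 with scan day as a term (7.24%), 0 on scan day 1 (3.77%) and 8 on scan day 2 (23.7%). Leaving out 1 array gave 0 to 6. The 6 were Ulk1, Atg9a, Wipi2, Atg4a, Map1lc3b and Calcoco1 without Sting gt/gt replicate 1, when 7.88% of all genes passed. With slide as a fixed block, which rests on the 5 arrays of 2 slides, only Pik3c3 passed, 17 of the 37 differences changed sign, and 14 genes were lower in Sting gt/gt where 23 had been. Of the genes given in full the differences turned for Atg4a (0.0385), Ulk1 (0.0676), Atg9a (0.0804) and Wipi1 (0.0468). On scan day 1, Atg9a also turned (0.0445). The replicate block changed the side of the threshold for Atg9a and Pik3c3 and for no other gene given in full. On scan day 2 the count of 8 was 3 without scaling (16.8% of all genes called), 12 with quantile normalization or in the authors' series table (23.7% each), 11 with the normexp background (22.2%), array weights (30.9%) or the t-test (21.7%), and 5 to 9 with 1 array left out. After adjustment on scan day 2 the count of 0 became 2 with quantile normalization, in the authors' series table or among genes well above background on all 14 arrays (Atg9a and Atg4a, smallest adjusted p 0.0395, 0.0446 and 0.0404), 1 with normexp (Atg9a, 0.0463) and 4 with array weights (Atg9a, Atg4a, Atg3 and Atg7, 0.0226). Of all genes, 2.02%, 1.59%, 3.46%, 1.45% and 11% passed after adjustment in these settings, in the order given. Without Sting gt/gt replicate 7 the adjusted count was 1 (Atg9a, 0.0430), when 7.54% of all genes passed. On scan day 1 the unadjusted count of 0 became 1 with the normexp background (3.34% of all genes called) or the mean of a gene's probes (3.71%). The same count was 1 with array weights (7.85%) or the t-test (3.44%), and 0 passed after adjustment in each. No setting run gave an autophagy gene whose genotype effect differed between scan days after adjustment. The median difference of the set, -0.04, ran from -0.10 without scaling to 0.04 with slide as a fixed block. Under all 31 alternatives it moved by less than the spread of the set's median level between arrays (0.152). That spread is larger than the median difference itself, so it is a loose limit. The number of genes following the erythroid average was 6 to 8 under the other scalings and without Tfrc, settings chosen after the data were seen, and 4 to 8 with 1 array left out (4 without Sting gt/gt replicate 7). The cause of these changes was not tested.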

Other observations

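Autophagy genes also moved with averages of other cell type markers within a scan day. Atg101 followed the average of 9 neutrophil genes on both days, with r = 0.866 on scan day 1 (n = 6, exact permutation p = 0.0236, rho 0.771, p = 0.103) and 0.925 on scan day 2 (n = 8, exact permutation p = 0.00198, rho 0.905, p = 0.00456). Without the 2 arrays farthest from the median of that average, r was 0.507 and 0.709, so the relation rests in part on those arrays, and it did not pass after adjustment over 666 correlations (adjusted exact permutation p = 0.273 and 0.162). No other cell type average was followed by an autophagy gene at r over 0.8 on both scan days, apart from the erythroid one. The T cell, macrophage and monocyte, dendritic cell, NK cell and platelet lists held no gene past an unadjusted p under 0.05 between genotypes over all 14 arrays, nor did the B cell, plasma cell and neutrophil lists. On scan day 2, where 23.7% of all genes passed, 6 of 9 B cell genes passed, all lower in Sting gt/gt, and 5 of 7 plasma cell genes and 2 of 9 neutrophil genes, all higher. On scan day 1, where 3.77% of all genes passed, 1 B cell, 2 plasma cell and 1 NK cell gene did. The median difference on scan day 1 was 0.28 for the B cell list and -0.14 for the plasma cell list. With scan day as a term, where 7.24% of all genes passed, 2 plasma cell genes did, both higher in Sting gt/gt. Over all arrays, among the immediate early and stress genes Hspa1b was lower in Sting gt/gt (-0.58, SE 0.25).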
